A study of Mus musculus with 6 samples.

Results

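Imprinted genes outside the Dlk1-Dio3 cluster were examined in mouse embryonic stem cells (ESC), mouse embryonic fibroblasts (MEF) and 4 lines of induced pluripotent stem cells (iPSC). The set was a list of 43 gene symbols of known imprinted genes, matched by symbol to the series' gene table, which holds 19330 genes. Of these symbols, 41 were found, in 19 imprinted regions, and Snurf and Kcnk9 were not analysed here. The 41 genes comprised 25 that are paternally expressed, 14 that are maternally expressed and 2, Gnas and Blcap, with transcripts of both kinds. Imprinting is known in many tissues for 27 of them, and for 14 it is known only in some tissues, from some promoters or with varying reports. These 14 are Ube3a, Ddc, Copg2, Kcnq1, Ascl2, Tssc4, Cd81, Blcap, Gnas, Commd1, Inpp5f, Rasgrf1, Slc38a4 and Peg13. The assignment of each gene to a parental allele came from textbook knowledge, because these libraries give the total level of a gene and do not separate its alleles.

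Each library was made from total RNA with an mRNA library kit. The samples were 1 ESC library, titled B6, with a source name that also mentions blu, 1 MEF library, 2 control iPSC lines (3 and 7) and 2 iPSC lines labelled with palmitoylcarnitine, a fatty acid ester of carnitine, abbreviated PC (5 and 13). No genotype, reprogramming method, age, PC dose or time of exposure was given for any group, and the parent cells of the iPSC lines were not named. ESC and iPSC were grown in serum medium with leukemia inhibitory factor on mitotically inactivated MEF feeders, and the MEF sample was grown without that factor in a simpler serum medium. Each iPSC library is taken here as 1 line, ESC and MEF have 1 library each, and nothing in the labels says whether the lines came from separate derivations. The p-values below therefore measure the spread between these lines, which may be partly technical, and the single ESC and MEF libraries were assumed to vary as the iPSC lines do.

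Genomic imprinting is the expression of a gene from only the maternal or only the paternal copy. It is set by DNA methylation laid down in the egg or the sperm at imprinting control regions, which is kept through the reprogramming of the early embryo by the zinc finger protein ZFP57 and its corepressor TRIM28. Many paternally expressed genes, such as Igf2, promote fetal growth, while several maternally expressed genes, such as Igf2r, Grb10, Cdkn1c and Phlda2, restrain it. In pluripotent cells grown in culture, imprints are known to be lost or gained at some regions.

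The libraries held 26.51 M to 27.99 M counted reads. A list of 12 pluripotency markers summed to 3980 to 5272 RPKM (reads relative to the length of a gene and the depth of a library) in the ESC and iPSC libraries and to 249 RPKM in MEF, where 7 of the 12 had no read. A list of 24 fibroblast markers summed to 10204 RPKM in MEF, 1023 in ESC and 1476, 2424, 2652 and 2235 in lines 3, 7, 5 and 13, and none of these markers was at 0 in any library. Reads from feeder cells and reads from the stem cells themselves cannot be told apart in these bulk libraries, nor can fewer cells of a type and less RNA per cell. iPSC line 5 stood apart along chromosome 11: the median of 1352 genes there was 0.42 higher on the log2 scale than in the mean of lines 3, 7 and 13, and the medians of its other chromosomes lay between -0.08 and 0.01. The ESC library had a chromosome 11 median of 0.41 on the same scale.

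Upstream windows of 5 genes are shown because they belong to genes on which the results turn and that differ in their content of the bases bound by ZFP57. Each is the stretch of 250 bases before a RefSeq transcript start (GRCm38, the build also called mm10), read 5′ to 3′ on the strand of the gene, with each CpG, the dinucleotide that can be methylated, in capitals. They lie at chr6:30737800-30738049 (plus strand) for Mest, chr10:13090582-13090831 (plus) for Plagl1, chr1:63200108-63200357 (plus) for Zdbf2, chr11:12037421-12037670 (minus) for Grb10 and chr11:22971755-22972004 (plus) for Zrsr1.
Mest: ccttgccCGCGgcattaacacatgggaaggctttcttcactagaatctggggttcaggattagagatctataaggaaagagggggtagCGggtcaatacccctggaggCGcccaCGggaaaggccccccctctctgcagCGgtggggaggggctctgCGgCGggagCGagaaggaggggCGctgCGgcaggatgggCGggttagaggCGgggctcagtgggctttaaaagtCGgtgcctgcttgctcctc
Plagl1: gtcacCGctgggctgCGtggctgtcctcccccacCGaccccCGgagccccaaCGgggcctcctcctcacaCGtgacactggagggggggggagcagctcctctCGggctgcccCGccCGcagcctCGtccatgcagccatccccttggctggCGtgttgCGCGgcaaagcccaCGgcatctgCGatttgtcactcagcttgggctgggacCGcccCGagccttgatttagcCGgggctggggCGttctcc
Zdbf2: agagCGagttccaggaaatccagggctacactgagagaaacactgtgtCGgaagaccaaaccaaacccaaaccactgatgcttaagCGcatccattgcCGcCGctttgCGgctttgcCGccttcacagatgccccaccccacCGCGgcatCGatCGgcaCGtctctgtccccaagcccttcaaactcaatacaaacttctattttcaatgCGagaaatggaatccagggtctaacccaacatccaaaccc
Grb10: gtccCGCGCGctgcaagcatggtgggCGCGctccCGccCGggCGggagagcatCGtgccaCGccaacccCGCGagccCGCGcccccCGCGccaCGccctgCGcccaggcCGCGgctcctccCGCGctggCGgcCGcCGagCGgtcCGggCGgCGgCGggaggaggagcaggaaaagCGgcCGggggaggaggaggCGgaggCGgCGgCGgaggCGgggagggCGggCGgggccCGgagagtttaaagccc
Zrsr1: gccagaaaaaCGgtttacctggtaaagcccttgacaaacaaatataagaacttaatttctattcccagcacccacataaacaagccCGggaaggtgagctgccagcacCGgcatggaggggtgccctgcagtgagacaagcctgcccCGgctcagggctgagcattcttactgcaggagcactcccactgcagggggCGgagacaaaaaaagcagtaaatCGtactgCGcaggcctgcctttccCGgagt
The windows hold 14, 19, 13, 40 and 8 CpG, in the order printed. The hexamer TGCCGC, which ZFP57 binds when its CpG is methylated, was searched on both strands, so also as GCGGCA. It occurs 2 times in the Mest window shown, 1 time in the Plagl1 window, 3 times in the Zdbf2 window shown and in neither the Grb10 nor the Zrsr1 window. Some of these genes have other windows. Those of Mest at chr6:30733256-30733505 (7 CpG), Zdbf2 at chr1:63273019-63273268 (26 CpG) and Grb10 at chr11:12027972-12028221 (8 CpG) hold no match. Of the 41 imprinted genes found, 33 have an upstream window in the table, 50 windows in all, and 7 windows (14%) hold the hexamer, those of Mest (2 windows), Copg2, Nap1l5, Plagl1, Zdbf2 and Zim1. Among all 32851 mouse windows the share was 8.68%. The median number of CpG was 11.5 in the 50 windows of imprinted genes and 6 in all windows. The 2 Mest windows with the hexamer start at 30737800 and 30737803 and share most of their bases. No methylation was measured in these samples, and a match or its absence describes only the letters in the window.

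The levels of the imprinted genes differed widely, from 0.0117 RPKM for Kcnq1 to 1201 for H19, both in MEF, among genes tested with a read in every library, as in the plot of levels by library. Their summed RPKM was 982 in ESC, 911, 997, 1049 and 995 in lines 3, 7, 5 and 13, and 2999 in MEF. The 20 paternally expressed genes with imprinting in many tissues summed to 173 RPKM in ESC, 116, 131, 184 and 137 in lines 3, 7, 5 and 13, and 700 in MEF. Line 5 was thus nearest to ESC in this sum, and the other 3 lines lay below both. The 7 maternally expressed genes of the same kind summed to 223 RPKM in ESC, 194, 218, 222 and 218 in the same order of lines, and 1428 in MEF.

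**Figure D1:**
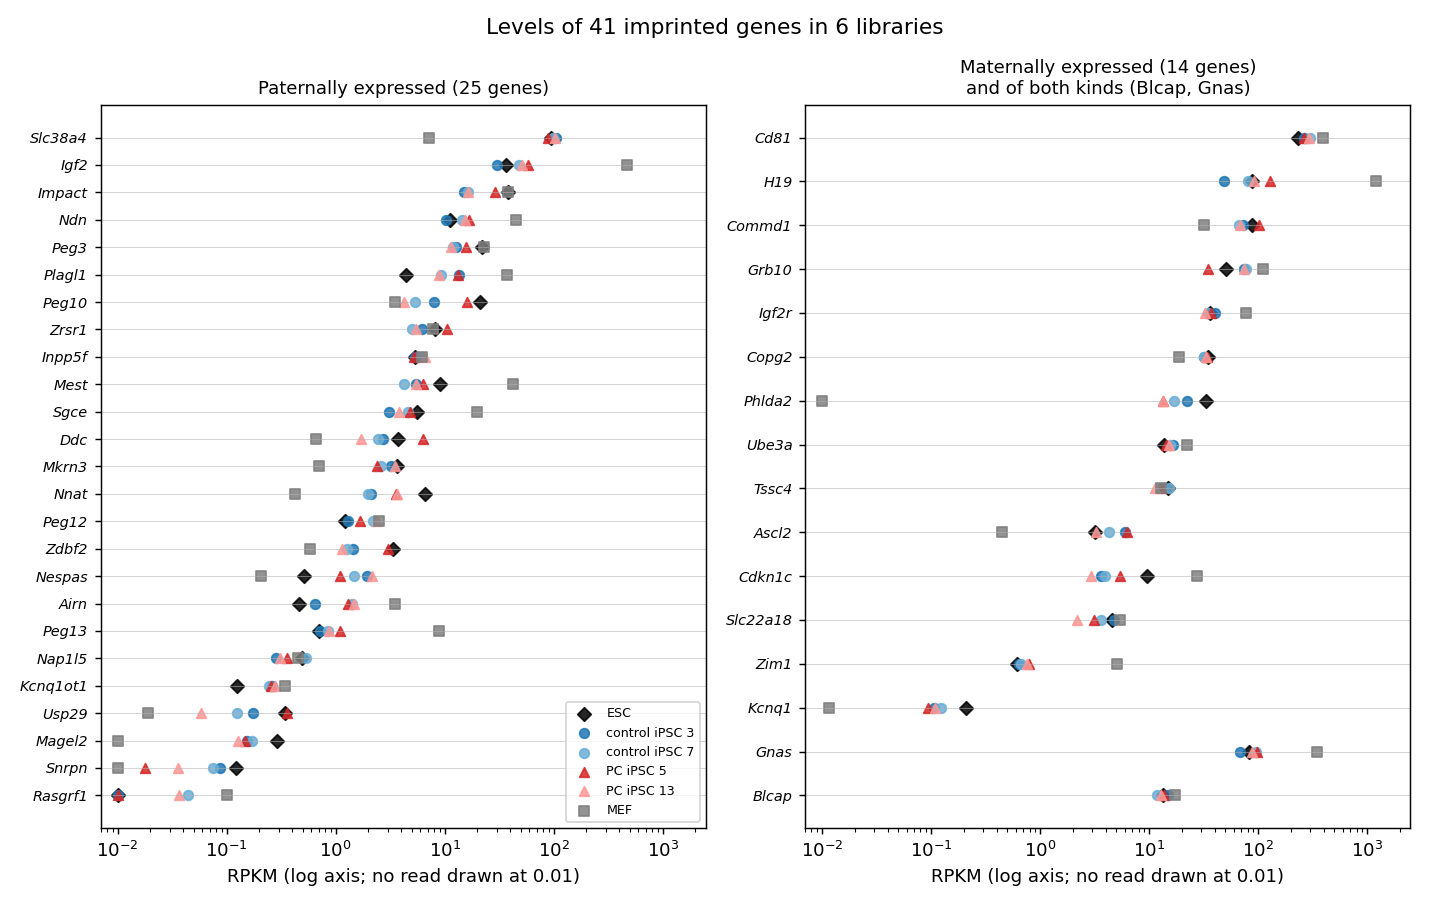
Level of each of the 41 imprinted genes in the 6 libraries, in RPKM on a log axis (a gene without a read is drawn at 0.01), with paternally expressed genes on the left and maternally expressed genes and the 2 genes of both kinds on the right. H19, Igf2 and Mest are far higher in MEF, Phlda2 has no MEF read, and the 4 iPSC lines lie close together for most genes.

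Compared with ESC, iPSC had lower levels of the paternally expressed genes Peg3, Nnat, Mest and Impact and of the maternally expressed growth restrainers Phlda2 and Cdkn1c. They had higher levels of the paternally expressed genes Plagl1 and Kcnq1ot1. The differences were 1.74-fold to 2.50-fold, and the lines of both treatments lay on the same side of ESC for each of these 8 genes. The best known imprinted pair, Igf2 and H19, did not pass the test. In all, 8 of the 40 genes that could be tested (Snrpn had too few reads) passed an adjusted p of 0.05 over the 16435 genes tested, against 10.4% of all genes. Higher calls were 2 of 40 against 4.71% of all genes, and lower calls were 6 of 40 against 5.71%. The median log2 difference was -0.13 for the imprinted genes and 0.03 for all genes. All 4 lines lay on the same side of ESC for 23 of the 40 genes, 10 higher and 13 lower, against 66.5% of all genes (37.3% higher and 29.3% lower). At an unadjusted p under 0.05 there were 11 of 40, against 29.8% of all genes.

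Peg3 (chr7:6703892-6730462), a zinc finger protein whose loss in mice reduces growth and alters maternal behaviour, stood at 21.9 RPKM in ESC, at 12.8, 11.9, 15.7 and 11.4 in lines 3, 7, 5 and 13, and at 23.1 in MEF. All 4 lines lay below both ESC and MEF. The log2 fold change from ESC was -0.80 ± 0.17 (SE; edgeR adjusted p = 0.0359). Nnat (chr2:157560078-157562525), which encodes the small membrane protein neuronatin and lies within Blcap, had 6.56 RPKM in ESC, 2.13, 1.97, 3.55 and 3.62 in the lines, and 0.425 in MEF. The control lines were lowest among the pluripotent samples, and the fold change from ESC was -1.31 ± 0.29 (SE, log2; edgeR adjusted p = 0.0375). With DESeq2 in place of edgeR, Nnat missed the threshold.

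Mest (chr6:30733506-30748466), a hydrolase-like protein of mesoderm, was at 9.06 RPKM in ESC, at 5.46, 4.20, 6.31 and 5.45 in lines 3, 7, 5 and 13, and at 42.8 in MEF. All lines were below ESC, by -0.81 ± 0.18 (SE, log2; edgeR adjusted p = 0.0405). Without line 13 the difference was -0.77 and the call was lost, in a fit with a single PC line. Impact (chr18:12954690-12992950), an inhibitor of GCN2 activation that is imprinted in mouse, had 38.4 RPKM in ESC and also 38.4 in MEF, with 15.1, 16.3, 28.9 and 16.3 in the lines. Line 5 lay between the other lines and ESC, and the mean difference was -1.07 ± 0.25 (SE, log2; edgeR adjusted p = 0.0444).

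Cdkn1c (chr7:143458339-143461059), the cyclin-dependent kinase inhibitor p57, was found at 9.65 RPKM in ESC, at 3.64, 3.94, 5.45 and 2.92 in lines 3, 7, 5 and 13, and at 27.4 in MEF. The lines were lower by -1.32 ± 0.29 on the log2 scale (SE; edgeR adjusted p = 0.0370). Phlda2 (chr7:143501545-143503145), which restrains placental growth, had 33.1 RPKM in ESC, 22.2, 16.8, 13.4 and 13.5 in the lines and no read in MEF. Every line was below ESC, and the PC lines were the lowest 2. The log2 difference from ESC was -1.07 ± 0.22 (SE; edgeR adjusted p = 0.0326).

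Kcnq1ot1 (chr7:143213111-143296547) is a long noncoding RNA read antisense to Kcnq1 that silences Cdkn1c, Phlda2 and neighbours on the paternal copy in mouse. It was at 0.124 RPKM in ESC (290 reads), at 0.262, 0.246, 0.254 and 0.277 in lines 3, 7, 5 and 13 (545 to 627 reads), and at 0.340 in MEF. The 4 lines were close to each other and all above ESC, by 1.02 ± 0.19 (SE, log2; edgeR adjusted p = 0.0276). It overlaps Kcnq1, and with no statement on strand in the counting, reads of the overlapping genes cannot be told apart. The ratio of Kcnq1ot1 to Cdkn1c in RPKM was 0.0129 in ESC, 0.0720, 0.0625, 0.0466 and 0.0946 in the lines and 0.0124 in MEF.

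Plagl1 (chr10:13090832-13131694), a zinc finger transcription factor, had 4.38 RPKM in ESC, 13.4, 9.34, 13.4 and 8.81 in lines 3, 7, 5 and 13, and 37.3 in MEF. All lines lay between ESC and MEF. The rise over ESC was 1.31 ± 0.29 (SE, log2; edgeR adjusted p = 0.0381).

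**Figure D2:**
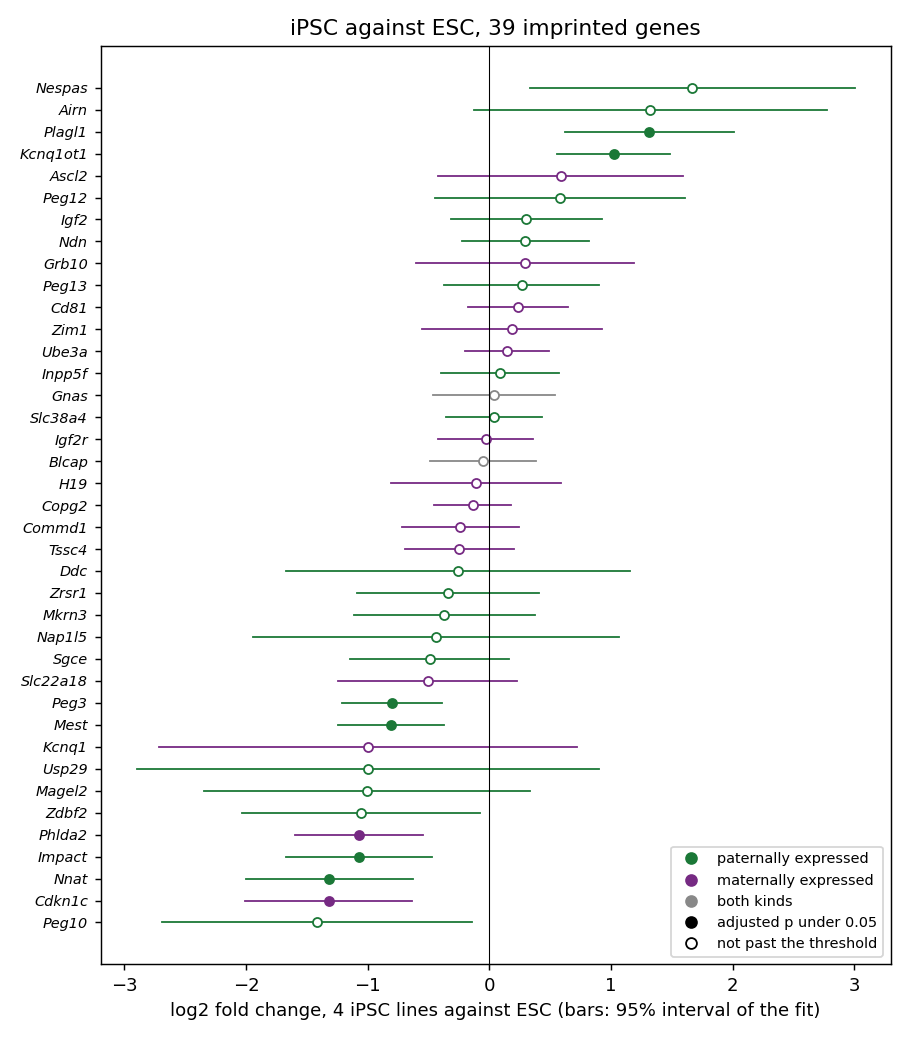
Log2 fold change of the 4 iPSC lines against ESC for 39 imprinted genes, with the 95% interval derived from the edgeR test. Filled points pass the adjusted p of 0.05, and colours mark the expressed allele. Plagl1 and Kcnq1ot1 are the filled points above 0 and 6 genes are filled below 0; Rasgrf1, with 0 to 5 reads in these libraries, is left out.

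Among paternally expressed genes that missed the threshold, Peg10 and Zdbf2 had large differences and wide intervals. Peg10 (chr6:4747306-4760517), a retrotransposon-derived gene needed in the placenta, had 21.1 RPKM in ESC, 7.98, 5.33, 15.9 and 4.25 in lines 3, 7, 5 and 13, and 3.49 in MEF. Its log2 difference from ESC was -1.41 ± 0.53 (SE; edgeR adjusted p = 0.135). Zdbf2 (chr1:63200358-63314576), a zinc finger gene linked to growth in mouse, had 3.38 RPKM in ESC, 1.44, 1.26, 3.03 and 1.14 in the lines, and 0.582 in MEF. The log2 difference was -1.06 ± 0.41 (SE; edgeR adjusted p = 0.143). For both genes line 5 was near ESC and the other 3 lines were lower. Without line 5 the log2 differences were -2.04 for Peg10 and -1.50 for Zdbf2, and without line 13 they were -1.09 and -0.79. Such fits leave a single line in a group, so only the sizes are given for both genes. The calls gained in such fits are named further below. DESeq2 did not call either gene (DESeq2 adjusted p = 0.368 for Peg10 and 0.101 for Zdbf2). Nor did limma with pseudocounts of 1 and 0.1 (limma adjusted p = 0.271 and 0.280 for Peg10, 0.278 and 0.301 for Zdbf2).

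Nespas, a noncoding RNA antisense to the Nesp promoter of Gnas, had 0.510 RPKM in ESC (32 reads), 1.93, 1.46, 1.11 and 2.16 in lines 3, 7, 5 and 13 (69 to 132 reads), and 0.207 in MEF. Every line was above ESC, but the log2 difference of 1.67 ± 0.56 (SE) had an edgeR adjusted p of 0.106. Over the alternative settings the difference ran from 0.80 to 1.86. Airn, the noncoding RNA that silences Igf2r on the paternal copy in mouse, had 18 reads in ESC, 25, 52, 50 and 56 in the lines and 138 in MEF. This is 0.461, 0.647, 1.40, 1.29, 1.47 and 3.52 RPKM, and line 3 was the lowest of the iPSC lines. The difference from ESC was 1.32 ± 0.61 (SE, log2; edgeR adjusted p = 0.198).

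Igf2 (chr7:142650768-142666816), the fetal growth factor, had 36.4 RPKM in ESC, 30.4, 48.1, 57.8 and 50.8 in lines 3, 7, 5 and 13, and 473 in MEF. H19 (chr7:142575530-142578146), the noncoding RNA made from the maternal copy of the same region, had 88.2 RPKM in ESC, 48.5, 80.1, 127 and 92.2 in the lines, and 1201 in MEF. ESC lay within the range of the iPSC lines for both, with log2 differences of 0.30 ± 0.26 for Igf2 (95% interval -0.32 to 0.92) and -0.11 ± 0.29 for H19 (95% interval -0.81 to 0.59). Their ratio, Igf2 over H19 in RPKM, was 0.412 in ESC, 0.626, 0.600, 0.454 and 0.551 in the lines and 0.393 in MEF.

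The call count for iPSC against ESC depended on the model. The main fit called 8 of 40, against 1713 of all 16435 genes. With library totals as the only scaling 4 passed, Kcnq1ot1, Nnat, Phlda2 and Plagl1, against 1528 of all genes. With DESeq2 7 passed, against 2352 of all genes. With limma on log2 RPKM 0 of the 40 genes passed, against 11 of all genes with a pseudocount of 1 and 3 with 0.1. At an unadjusted p under 0.05 limma had 10 with a pseudocount of 1 and 11 with 0.1, against 4725 and 4795 of all genes.

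Genes that read, write or protect imprints were examined beside the imprinted genes. Of 25 such genes, 3 passed as higher in iPSC than ESC and 0 as lower (4.71% and 5.71% of all genes), while 11 had an unadjusted p under 0.05, against 29.8% of all genes (edgeR). Against MEF, 14 of the 25 passed as higher in iPSC and 4 as lower (36.5% and 31.6% of all genes), and between PC and control lines 0 passed and 0 had an unadjusted p under 0.05 (0.0% and 2.34% of all genes). Zfp57, the factor that holds methylation at imprinting control regions, had 79.7 RPKM in ESC, 135, 149, 141 and 134 in lines 3, 7, 5 and 13, and 3.89 in MEF, a log2 rise over ESC of 0.77 ± 0.16 (SE; edgeR adjusted p = 0.0314). Zfp42, also called Rex1, had 67.2 RPKM in ESC, 171, 170, 143 and 169 in the lines and no read in MEF (1.24 ± 0.18 over ESC, SE, log2; edgeR adjusted p = 0.0165). Arid4a, a chromatin protein that affects the Snrpn imprint in mouse, had 4.58 RPKM in ESC, 8.43, 7.51, 7.11 and 7.89 in the lines and 10.6 in MEF (0.71 ± 0.17, SE, log2; edgeR adjusted p = 0.0457). All lines were above ESC for these genes.

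Trim28, the corepressor that ZFP57 brings in, had 321 RPKM in ESC, 355, 338, 302 and 330 in lines 3, 7, 5 and 13, and 75.8 in MEF. Dnmt1, the maintenance DNA methyltransferase, had 72.5 RPKM in ESC, 63.7, 48.6, 52.2 and 52.3 in the lines, and 9.62 in MEF. Neither passed the test against ESC. Dppa3, which shields imprints in the zygote, had 96.5 RPKM in ESC, 18.8, 22.6, 76.7 and 13.9 in the lines and no read in MEF. Line 5 was again near ESC and the other lines were lower, and the mean log2 difference of -1.71 ± 0.64 (SE) had an edgeR adjusted p of 0.134.

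In the insulin-like growth factor pathway, 14 genes were tested and 5 passed against ESC, 3 higher and 2 lower, where 10.4% of all genes passed, 4.71% higher and 5.71% lower. Against MEF 13 passed, 3 higher and 10 lower, where 68.1% of all genes passed, 36.5% higher and 31.6% lower. Irs1, a docking protein of the insulin and IGF receptors, had 0.410 RPKM in ESC, 1.05, 1.09, 1.28 and 1.02 in lines 3, 7, 5 and 13, and 27.6 in MEF (1.39 ± 0.20 over ESC, SE, log2; edgeR adjusted p = 0.0155). Igf2bp3, an RNA-binding protein that binds Igf2 RNA, had 8.49 RPKM in ESC, 23.2, 19.2, 15.4 and 20.8 in the lines, and 12.5 in MEF (1.17 ± 0.23; edgeR adjusted p = 0.0302). Igfbp5, a secreted IGF binding protein, had 0.239 RPKM in ESC, 1.45, 4.68, 5.71 and 3.71 in the lines and 32.9 in MEF (3.95 ± 0.79; edgeR adjusted p = 0.0302). All lines were above ESC for these genes.

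Of the binding proteins that were lower, Igfbp2 had 1097 RPKM in ESC, 436, 452, 606 and 465 in lines 3, 7, 5 and 13, and 165 in MEF (-1.21 ± 0.17, SE, log2; edgeR adjusted p = 0.0150). Igfbp4 had 25.1 RPKM in ESC, 9.56, 9.19, 10.2 and 9.63 in the lines, and 167 in MEF (-1.42 ± 0.13; edgeR adjusted p = 0.00611). Igf1r, the receptor for the IGF ligands, had 4.81 RPKM in ESC, 5.20, 4.77, 5.37 and 5.31 in the lines, and 23.6 in MEF, with a log2 difference from ESC of 0.06 ± 0.14. The calls among these regulators and IGF genes numbered 8 of 39 together, against 10.4% of all genes. The count rose when a line was left out, as did that of all genes. Limma called 0 of the 39, against 11 of all genes with a pseudocount of 1 and 3 with 0.1. At an unadjusted p under 0.05 limma had 10 and 11 of the 39 with pseudocounts of 1 and 0.1, against 4725 and 4795 of all 16435 genes.

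Against MEF, iPSC had far lower levels of the fetal growth pair Igf2 and H19, of Mest, Peg13, Zim1 and Sgce, and of Cdkn1c, and far higher levels of Slc38a4, Ascl2 and Phlda2. In all, 27 of 40 imprinted genes passed, against 68.1% of all genes. Of these, 11 were higher in iPSC (36.5% of all genes) and 16 were lower (31.6%). The lines did not overlap with MEF for 36 of 40 genes (89.0% of all genes), 14 higher (47.3%) and 22 lower (41.7%), and 29 of 40 had an unadjusted p under 0.05 (71.3%). The median log2 difference was -0.38 for the imprinted genes and 0.16 for all genes. In the ESC library set against the MEF library, with no test because each is single, 13 of 40 genes were at least 2-fold higher in ESC (31.2% of all genes) and 16 at least 2-fold lower (28.1%). The iPSC lines are the same as in the comparison with ESC.

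The growth factor pair had the lowest values of the log2 difference. In the fit H19 was at -3.82 ± 0.25 (SE; edgeR adjusted p = 3.2e-05) and Igf2 at -3.33 ± 0.22 (edgeR adjusted p = 3.1e-05), with the lines at 7.25% and 9.90% of the MEF level on average. Peg13, a noncoding RNA within Trappc9, had 0.709 RPKM in ESC, 0.725, 0.859, 1.09 and 0.861 in lines 3, 7, 5 and 13, and 8.88 in MEF (-3.32 ± 0.21, SE; edgeR adjusted p = 2.9e-05). Mest (-2.98 ± 0.16), Cdkn1c (-2.76 ± 0.27) and Plagl1 (-1.71 ± 0.24) were lower as well, with the RPKM values given above.

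Zim1, the maternally expressed neighbour of Peg3, had 0.609 RPKM in ESC, 0.636, 0.674, 0.798 and 0.751 in lines 3, 7, 5 and 13, and 5.04 in MEF (-2.80 ± 0.25 against MEF). Sgce, which encodes epsilon-sarcoglycan and neighbours Peg10, had 5.57 RPKM in ESC, 3.11, 4.58, 4.84 and 3.85 in the lines, and 19.9 in MEF (-2.26 ± 0.25). The paternal genes Peg10 and Sgce thus differed in order between libraries, since Peg10 was highest in ESC and Sgce in MEF. Gnas, the stimulatory G protein alpha subunit, had 82.3 RPKM in ESC, 68.6, 95.1, 97.0 and 87.7 in the lines, and 349 in MEF (-1.98 ± 0.19). Ndn, a MAGE family protein of the Prader-Willi region, had 11.1 RPKM in ESC, 10.3, 14.4, 16.6 and 15.4 in the lines, and 45.6 in MEF (-1.67 ± 0.19). All 4 lines were below MEF for these genes.

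Igf2r, the maternally expressed receptor that sends IGF2 to the lysosome, had 35.8 RPKM in ESC, 40.3, 34.4, 37.3 and 32.5 in lines 3, 7, 5 and 13, and 78.2 in MEF (-1.09 ± 0.15). Its antisense partner Airn was lower by -1.54 ± 0.47 against MEF. Impact (-1.01 ± 0.25) and Peg3 (-0.82 ± 0.17) were also below MEF, though the call of Impact was lost with limma at both pseudocounts (limma adjusted p = 0.0521 and 0.0525). Thus Peg3 and Impact passed in edgeR as lower in iPSC than in either ESC or MEF, and both reference libraries had near-equal levels of them. Small drops passed for Ube3a, an E3 ubiquitin ligase with maternal expression in neurons, with 13.6 RPKM in ESC, 16.7, 15.7, 14.2 and 15.3 in the lines, and 22.3 in MEF (-0.50 ± 0.14). The tetraspanin gene Cd81 had 231 RPKM in ESC, 263, 299, 262 and 295 in the lines, and 395 in MEF (-0.48 ± 0.17), and its call was lost without line 3.

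Among the higher genes, the amino acid transporter gene Slc38a4 had 94.0 RPKM in ESC, 105, 98.8, 88.9 and 104 in lines 3, 7, 5 and 13, and 7.18 in MEF (3.81 ± 0.22 against MEF, SE, log2; edgeR adjusted p = 2.0e-05). Ascl2, a trophoblast transcription factor, had 3.20 RPKM in ESC, 5.95, 4.28, 6.33 and 3.27 in the lines, and 0.443 in MEF (3.49 ± 0.55). Phlda2 had no read in MEF and was at least 113-fold higher in the iPSC mean than a floor of 3 MEF reads. Magel2, a MAGE family gene, had 0.292 RPKM in ESC, 0.155, 0.170, 0.147 and 0.126 in the lines and no read in MEF, at least 6.51-fold higher by the same floor. All lines were above MEF for each of these genes, and the floor of 3 reads covers counting error only.

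Mkrn3, a makorin ring finger gene of the Prader-Willi region, had 3.68 RPKM in ESC, 3.19, 2.63, 2.41 and 3.47 in lines 3, 7, 5 and 13, and 0.710 in MEF (2.06 ± 0.39). Nnat (2.69 ± 0.42), Nespas (3.02 ± 0.64) and Zdbf2 (1.54 ± 0.50) were above MEF too. Ddc, which makes dopamine and serotonin from their precursors, had 3.74 RPKM in ESC, 2.75, 2.45, 6.36 and 1.72 in the lines, and 0.655 in MEF (2.32 ± 0.75). With limma at pseudocounts of 1 and 0.1 the calls of Zdbf2 (limma adjusted p = 0.159 and 0.112) and Ddc (limma adjusted p = 0.122 and 0.0770) were lost. Commd1, which hosts Zrsr1, had 88.2 RPKM in ESC, 72.2, 67.0, 101 and 68.9 in the lines, and 31.9 in MEF (1.29 ± 0.23). Copg2, a coat protein subunit next to Mest, had 34.9 RPKM in ESC, 31.7, 31.8, 34.0 and 33.1 in the lines, and 18.9 in MEF (0.81 ± 0.14). Mest and Copg2 overlap at their ends, and so do Gnas and Nespas, and Igf2r and Airn. Zrsr1 lies within Commd1 and Nnat within Blcap. The reads of all these pairs may be shared.

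The fibroblast markers gave a scale for the genes that were lower than in MEF. The median marker stood at 7.20% of its MEF level in ESC, 7.99% in line 3, 11.2% in line 7, 13.3% in line 5 and 11.4% in line 13. The markers spread widely around it, from 0.189% (Dcn, in ESC) to 70.2% (Col1a1, in line 5). H19 and Igf2 were below the marker median in all 4 lines and above it in ESC. Cdkn1c, Mest and Peg13 fell below it in some lines and the remaining 11 genes in none. The part of feeder or residual fibroblast RNA in these levels was not tested.

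**Figure D3:**
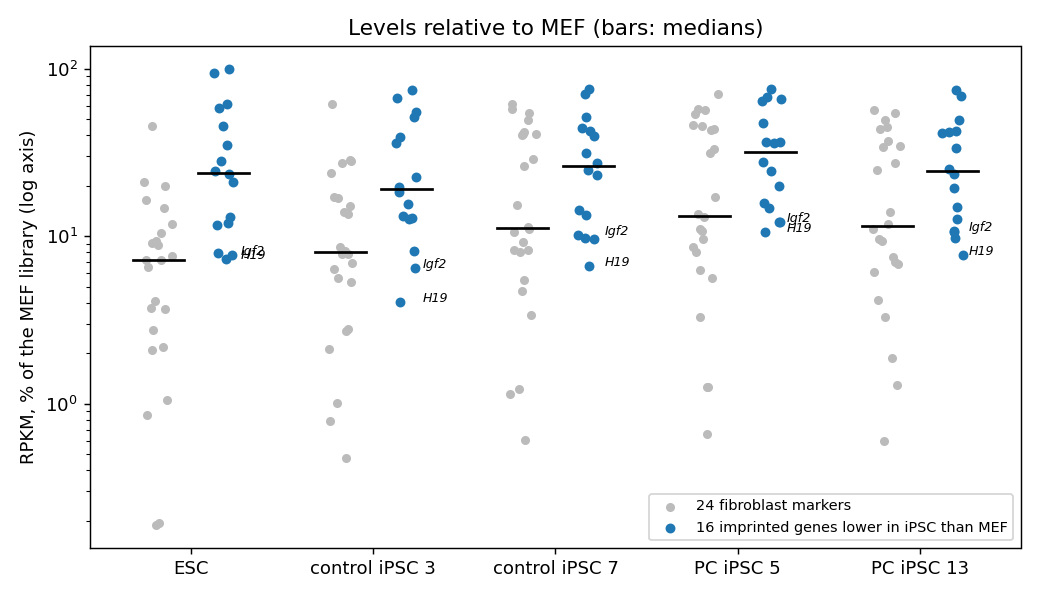
RPKM of the 24 fibroblast markers (grey) and of the 16 imprinted genes that passed as lower in iPSC than MEF (blue), as a percentage of the MEF library on a log axis, in ESC and each iPSC line; bars are medians. The marker medians run from 7.20% in ESC to 13.3% in line 5, and H19 and Igf2 lie among the lowest imprinted genes.

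Between the PC and the control lines, 0 of 40 imprinted genes passed, as did 0.0% of all genes tested (edgeR; DESeq2 and limma also called 0 imprinted genes, and limma had 2 at an unadjusted p under 0.05). At an unadjusted p under 0.05 there were 4 imprinted genes, against 2.34% of all genes, namely H19 and Nnat, which were higher with PC, and Phlda2 and Slc22a18, which were lower. Their log2 differences were 0.74 ± 0.27 for H19, 0.78 ± 0.29 for Nnat, -0.56 ± 0.21 for Phlda2 and -0.70 ± 0.29 for Slc22a18 (SE; edgeR adjusted p = 0.963 for each). Slc22a18, a membrane transporter gene beside Cdkn1c and Phlda2, had 4.59 RPKM in ESC, 4.74 and 3.65 in control lines 3 and 7, 3.10 and 2.17 in PC lines 5 and 13, and 5.40 in MEF. The lines of the 2 groups did not overlap for 14 of 40 genes, 8 higher and 6 lower with PC, against 31.4% of all genes.

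With only 2 lines a group, the intervals were wide. The 95% interval of the PC difference in Igf2 was -0.10 to 0.99 on the log2 scale, and that of Grb10 was -1.29 to 0.29. H19 was lowest in line 3. Without line 7 its difference was 1.16, with line 3 as a lone control that was assumed to vary as the other groups, and without line 3 it was 0.43. The median of the fibroblast markers, too, was lowest in line 3 and highest in line 5. Single markers differed in order, such as Fn1, which was highest in line 3, and Lum, which was highest in line 13. Against the mean of the 4 lines the marker median was -0.56, 0.19, 0.31 and 0.11 on the log2 scale in lines 3, 7, 5 and 13. The values of H19 were -0.76, -0.02, 0.59 and 0.18 and those of Igf2 -0.58, 0.10, 0.31 and 0.18. The part of these markers in the difference was not tested.

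Line 5 had levels apart from the other iPSC lines at several imprinted genes, most of them higher. Against the mean of the other lines, 8 of 40 imprinted genes were at least 1.5-fold higher in line 5 (11.5% of all genes) and 3 at least 1.5-fold lower (6.20%). With a single library these are descriptions and carry no test. The higher genes were paternally expressed Usp29, Peg10, Ddc, Zdbf2, Zrsr1 and Impact and maternally expressed H19 and Cdkn1c. The lower genes were Grb10, Nespas and Rasgrf1, and Rasgrf1 had only 0 to 5 reads in any iPSC line. The corresponding counts were 2 higher and 5 lower in line 3 (4.70% and 12.1% of all genes), 2 and 0 in line 7 (6.13% and 4.42%), and 0 and 6 in line 13 (5.46% and 6.65%). Each line stands in the reference mean of the others, so line 5 also lowers the values of the other lines at these genes.

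Usp29, a ubiquitin-specific peptidase gene beside Peg3, had 0.342 RPKM in ESC, 0.173, 0.125, 0.359 and 0.0586 in lines 3, 7, 5 and 13, and 0.0190 in MEF, from 4 to 75 reads. Its log2 difference in line 5 from the other lines was 1.58, and line 13 lay as far the other way, at -1.59. Line 13 was also the lowest line for Peg10 (-1.02) and Ddc (-0.99). Peg10 (1.44), Zdbf2 (1.20) and Impact (0.81) were higher in line 5 as well, with values near those of ESC for Peg10 and Zdbf2. Peg3 itself was 0.33 higher. Sgce, the neighbour of Peg10, was 0.29 higher, so Peg10 and Sgce moved by different amounts.

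On chromosome 11, where line 5 stood apart as a whole, the imprinted genes went in both directions. Zrsr1, a U2AF-related splicing gene, had 8.20 RPKM in ESC, 6.15, 5.01, 10.6 and 5.46 in lines 3, 7, 5 and 13, and 7.80 in MEF. Grb10 (chr11:11930499-12037428), the adaptor that restrains insulin and IGF receptors, had 51.1 RPKM in ESC, 74.1, 78.2, 34.9 and 73.6 in the lines, and 111 in MEF. Grb10 was thus lowest in line 5 and next lowest in ESC. In line 5 the log2 differences from lines 3, 7 and 13 were -1.16 for Grb10, 1.43 for Ddc, 0.88 for Zrsr1 and 0.49 for Commd1, against the chromosome median of 0.42. Only 0.518% of the chromosome 11 genes had a lower value than Grb10, while 96.4% had a lower value than Ddc, 87.6% than Zrsr1 and 62.4% than Commd1. In ESC the same genes stood at -0.53, 0.75, 0.60 and 0.37 against a chromosome median of 0.41.

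The neighbours Ddc and Grb10 are listed with opposite parental expression, but Ddc is among the genes with limited imprinting. The ratio of Ddc to Grb10 in RPKM was 0.182 in line 5, 0.0370, 0.0313 and 0.0233 in lines 3, 7 and 13, 0.0732 in ESC and 0.00589 in MEF. It compares total levels and does not separate alleles. Line 5 was highest and ESC next. The ratio of Peg3 to Zim1 was 36.0 in ESC, 20.1, 17.7, 19.6 and 15.2 in lines 3, 7, 5 and 13 and 4.58 in MEF. The ratio of Airn to Igf2r was 0.0129 in ESC, 0.0161 in line 3, between 0.0345 and 0.0454 in the other lines and 0.0451 in MEF. Airn overlaps Igf2r and had 18 to 138 reads a library, against 7887 to 19592 for Igf2r. With no statement on strand, reads of Igf2r may be among those counted for Airn.

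**Figure D4:**
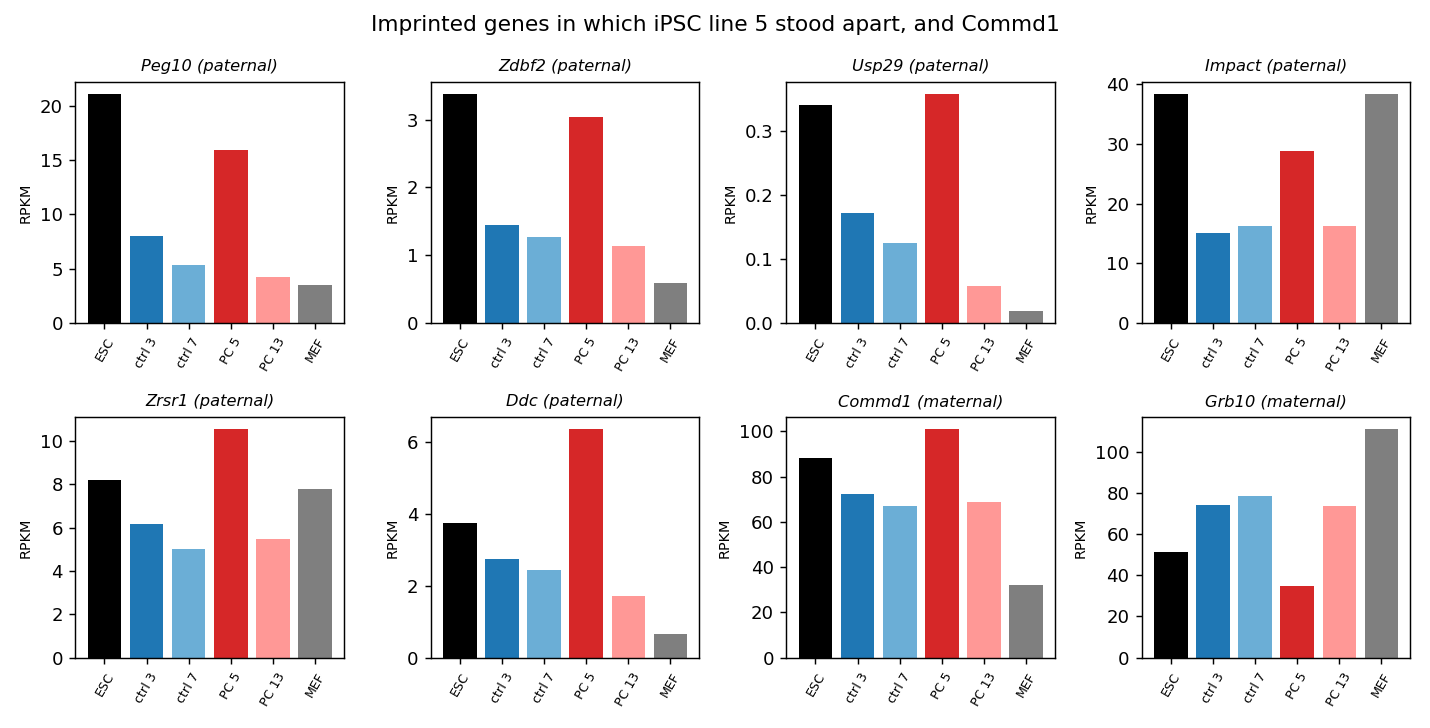
RPKM of 8 imprinted genes in the 6 libraries, 1 bar a library from an axis starting at 0 (ctrl, control line; PC, palmitoylcarnitine line). Line 5 is the highest iPSC line for 7 of the genes, with Peg10 at 15.9 and Zdbf2 at 3.03 near the ESC values, and the lowest for Grb10 at 34.9.

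The deposited table also lists the percentage of each gene's length covered by reads. For Gnas it was 95.3% in line 5, 54.8% in ESC, 55.7%, 68.4% and 62.8% in lines 3, 7 and 13, and 53.5% in MEF, although MEF had 36899 Gnas reads and line 5 had 10155. Line 5 was the highest library without having the most reads. For Copg2 coverage was 94.6% in line 5 and 95.04% in MEF and 84.6% to 86.6% in the other libraries. For Zrsr1 it was 69.7% in line 5, 62.6% to 63.1% in the other iPSC lines, 76.0% in ESC and 71.2% in MEF. These 3 genes were singled out after their values were seen. Among 39 imprinted genes with coverage in all iPSC lines, 1 line lay far from the other 3 for 7 genes (17.9%), against 11.8% of all genes, and that line was line 5 for Mkrn3, Copg2 and Zrsr1. The table does not say which exons were covered, so the promoter or isoform behind these reads was not analysed here.

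Some imprinted genes passed in none of the comparisons. Inpp5f, an inositol phosphatase gene, had 5.32 RPKM in ESC, 5.34, 6.09, 5.27 and 6.57 in lines 3, 7, 5 and 13, and 6.25 in MEF, with a 95% interval of -0.40 to 0.57 for the log2 difference of iPSC from ESC. Tssc4, which encodes a protein of the U5 small nuclear ribonucleoprotein, had 15.0 RPKM in ESC, 13.1, 15.2, 12.8 and 11.3 in the lines, and 12.8 in MEF. Blcap had 13.4 RPKM in ESC, 15.0, 11.8, 13.6 and 12.9 in the lines, and 17.1 in MEF. These genes stayed within a narrow range over all 6 libraries.

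The remaining genes were low throughout. Peg12 ranged from 1.22 RPKM in ESC to 2.52 in MEF, Nap1l5 from 0.285 to 0.534, and Kcnq1 from 0.0117 in MEF (1 read) to 0.211 in ESC (18 reads). Rasgrf1 had 0 reads in ESC and lines 3 and 5, 5 in line 7, 1 in line 13 and 12 in MEF. Snrpn, which encodes the spliceosomal protein SmN, had 7 reads in ESC, 5, 4, 1 and 2 in lines 3, 7, 5 and 13, and 0 in MEF. Snrpn shares its transcript with Snurf and overlaps Snhg14, so its count may not hold all reads of the locus.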

How the data were processed

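The authors deposited, per the file headers, a read count, an RPKM value and a covered share of the gene length for each gene in each of 6 libraries. The submitters' processing notes name CASAVA 1.8.2 and mm10. How reads were aligned, assigned to genes and to strands, and with which annotation, was not given in the sources used here. Counts as deposited were whole numbers that summed to 26.51 M to 27.99 M per library and equalled those in the per-library tables for every gene, and the authors' RPKM values were used as deposited for levels. The gene length behind RPKM differed between libraries for Snrpn and Rasgrf1, which are given as reads.

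The test on the counts was that of edgeR 4.0.16, run under R 4.3.3 (quasi-likelihood test, TMM scaling, filterByExpr, 16435 genes) in 1 fit of 4 group means with Benjamini-Hochberg adjustment over all genes tested. ESC and MEF have 1 library each, so the spread came from the iPSC lines with 2 residual degrees of freedom. The fit also drew the spread of each gene toward that of all genes, with 4.75 prior degrees of freedom. The common biological coefficient of variation was 0.18. iPSC means the average of the control and PC group means. Alternatives were DESeq2 1.42.0, limma 3.58.1 with trend on log2(RPKM + 1) and log2(RPKM + 0.1), other scaling factors, other filters and leaving out each iPSC line. The limma fold changes understate those of low genes. Gene coordinates and upstream windows are those of RefSeq on GRCm38; Nespas is listed there as Gnasas1.

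The imprinted genes, the other gene lists and the allele notes were chosen with earlier results of these data known. Values in all libraries are printed for imprinted genes that passed in a comparison or reached 5 RPKM in any library. Of the regulator and IGF lists those that passed between iPSC and ESC are printed, with Zfp57, Trim28, Dnmt1, Dppa3 and Igf1r. Usp29, Peg10, Zrsr1, Ddc, Commd1 and the other genes described in line 5 were singled out after their values were seen. Lists of trophoblast, neural and endoderm markers had sums of 6.38 to 16.0, 107 to 178 and 4.65 to 108 RPKM over the 6 libraries.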

Additional observations from a re-analysis of the deposited data

Results flagged for a closer look

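A single iPSC line lay far from the other 3 for a few values, measured as the gap to the nearest line divided by the range of the 4 lines. Chance flags about 1 in 20 groups, and among all genes tested 7.83% were flagged in log2 CPM (counts scaled to library size). Grb10 was low in line 5, with a gap of 0.923 of the range. Impact was high in line 5, with a gap of 0.861 of the range. These were 2 of the 40 imprinted genes tested (5.0%).

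In the share of the gene length covered by reads, a single line was as far apart for 11.8% of all genes and for 7 of 39 imprinted genes (17.9%). In line 5 coverage was high for Copg2 (gap of 0.840 of the range) and Zrsr1 (0.934) and low for Mkrn3 (0.910). In line 3 it was high for Commd1 (0.832) and low for Kcnq1ot1 (0.859). Slc22a18 was low in line 13 (0.875) and Peg3 was low in line 7 (0.833), where the 4 lines ran only from 99.6% to 99.9%. What lies behind these values was not tested.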

How the results depend on the processing

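Between iPSC and ESC, 4 imprinted genes passed with library totals as the only scaling, against 1528 of all genes. Limma called 0 imprinted genes at either pseudocount. With limma, 11 of all genes passed with a pseudocount of 1 and 3 with 0.1, and 0 regulator and IGF genes with either. Leaving out 1 iPSC line gave 9 to 11 imprinted genes, 1781 to 2873 of all genes and 9 to 15 regulator and IGF genes. Between iPSC and MEF the imprinted count was 27 of 40 in the main fit (67.5%, against 68.1% of all genes). It ran from 24 to 28 over the alternatives that kept all lines. Between PC and control lines, leaving out 1 line gave 0 to 1 imprinted genes, 0 to 309 of all genes and 0 to 3 regulator and IGF genes, and the highest of each came without line 7. The causes were not tested.

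The log2 difference turned sign for Grb10, iPSC against ESC, without line 13 (-0.042, in a range up to 0.50 over the lines left out), for H19, iPSC against ESC, without line 3 (0.026, in a range down to -0.32) and for Zdbf2, PC against control, without line 5 (-0.24, in a range up to 1.12). None of these passed the test in either form. Of the alternative values for the named genes, 187 of those against ESC kept direction and side of the threshold, 22 lost the call and 10 gained it. These gains (Peg10, Zdbf2 and Nespas) all came from fits without 1 iPSC line. Against MEF, 343 kept both and 7 lost the call. For PC against control, 102 kept both and 1 gained the call.

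No paired analysis was made, because nothing in the labels pairs libraries of different groups. With 2 lines per iPSC group and single ESC and MEF libraries, the spread rests on few samples, and genes under about 10 reads, such as Snrpn, Rasgrf1 and Kcnq1, give no usable ratio at this depth.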

Other observations

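The 8 imprinted genes that passed between iPSC and ESC were all among the 26 tested genes with imprinting in many tissues. None was among the 14 with limited imprinting. These shares were 30.8% and 0.0%, against 10.4% of all genes, and both groups are small. The difference between these groups was not tested. None of the 8 lies on chromosome 11.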
